A study of Mus musculus with 2 samples.

Results

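The mouse mitochondrial genome carries 37 annotated genes, and all of them are described here in calf muscle: 13 encode proteins, 2 encode ribosomal RNAs (mt-Rnr1 and mt-Rnr2) and 22 encode transfer RNAs. They were taken as every gene whose symbol begins with mt-, of 55536 annotated genes in all, and 4 chromosome 1 pseudogenes with near-identical sequence (Gm28661, Gm10925, Gm28437 and Gm29216) were read beside them. Total RNA of the gastrocnemius had been sequenced from male B6CASTF1/J mice, aged 18 to 20 months in the labels' description, in stranded libraries reduced in ribosomal RNA, by the name of their ERCC spike-in profile, each made from 300 ng of RNA. The mice are F1 hybrids of a C57BL/6J mother and a CAST/EiJ father, and mitochondrial DNA is inherited from the mother. The series has 1 untreated group with 2 libraries, called replicate 2 and replicate 1, and no contrast between conditions. The labels number the males differently but tie both libraries to 1 donor record, so it cannot be told whether the spread is that of separate animals, and every ± below is an SD over these n = 2 libraries. Replicate 2 held 44919441 expected counts and replicate 1 held 40795740, where an expected count is a number of reads after reads that fit several genes have been shared out.

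Mitochondrial DNA is a small circle that is transcribed from both strands as long precursors, which are cut, largely at the tRNAs that lie between the other genes, into rRNAs, mRNAs and tRNAs. Its mRNAs encode subunits of respiratory complexes I, III and IV and of the ATP synthase (complex V), whose remaining subunits come from nuclear genes, and its rRNAs form the mitochondrial ribosome. Working muscle draws ATP from these complexes, and the nuclear genome also holds old insertions of mitochondrial DNA, whose annotated copies can attract reads of the mitochondrial genes.

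The annotation places 28 of the 37 genes on the plus strand and 9 on the minus strand of chrM. The minus strand holds 8 of the 22 tRNA genes and a single protein gene, mt-Nd6, a subunit of complex I. The strands differ in base composition. G made up 28.1% of mt-Nd6, against 5.88% to 16.1% of the 12 protein genes of the plus strand. The first 60 bases of mt-Nd6 and of its neighbour mt-Nd5, another complex I subunit encoded on the opposite strand, are shown with each G in capitals (GENCODE M21 transcripts, mm10; minus strand chrM:14011-14070 and plus strand chrM:11742-11801). The stretch of mt-Nd6 holds 12 G and that of mt-Nd5 holds 0.
mt-Nd6: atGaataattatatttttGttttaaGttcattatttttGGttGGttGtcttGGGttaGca
mt-Nd5: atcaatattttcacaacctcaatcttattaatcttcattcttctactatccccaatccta

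Genes of this genome overlap, so some bases belong to 2 genes. The ATP synthase genes mt-Atp8 and mt-Atp6 share 43 bases, the complex I genes mt-Nd4l and mt-Nd4 share 7, and mt-Nd5 and mt-Nd6 share 14 on opposite strands. The first overlap (plus strand, chrM:7927-7969) runs from the start codon of mt-Atp6 to the stop codon of mt-Atp8, both in capitals. The second is shown in capitals after the 20 bases before it (plus strand, chrM:10147-10173). Reads from inside an overlap on 1 strand cannot be assigned to either gene by sequence alone.
mt-Atp8 and mt-Atp6: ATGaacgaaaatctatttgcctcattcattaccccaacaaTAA
mt-Nd4l and mt-Nd4: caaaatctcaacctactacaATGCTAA

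The chromosome 1 copies were almost the same sequence as the genes they copy. They belong to a block of 7 annotated copies within 4663 nt (mm10, minus strand, chr1:24611535-24616197). Gm28661 matched mt-Co2, Gm10925 matched mt-Atp6 and Gm28437 matched mt-Co3 over their whole length without a mismatch, and each ended short of the gene's last 3, 3 and 1 bases. The ends are shown because they are the only place where the transcript models of these 3 genes and their copies differ, and the bases that the copy's model lacks are in capitals. The genes lie on the plus strand at chrM:7661-7696, chrM:8572-8607 and chrM:9355-9390, and the copies on the minus strand at chr1:24614885-24614917, chr1:24613974-24614006 and chr1:24613189-24613223.
mt-Co2: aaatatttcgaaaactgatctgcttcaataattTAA
Gm28661: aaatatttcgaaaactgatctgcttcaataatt
mt-Atp6: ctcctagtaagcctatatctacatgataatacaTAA
Gm10925: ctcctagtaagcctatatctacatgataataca
mt-Co3: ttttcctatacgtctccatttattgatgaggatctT
Gm28437: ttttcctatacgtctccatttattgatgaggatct

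Only 2 of the 7 copies differed from their gene by a base within the match. Gm29216 matched the last 483 bases of mt-Co1, from base 1063 to base 1545, with the substitution A1066T, and began with 9 bases of its own. Gm28438 matched mt-Nd3 with the substitution T3C, in the first codon. Positions count from 1 at the 5′ end of the mitochondrial gene, and the changed base is in capitals. The stretches lie at chrM:6390-6413 and chrM:9459-9481 on the plus strand and at chr1:24616165-24616188 and chr1:24613097-24613119 on the minus strand.
mt-Co1: ggaAttgttttatccaactcatcc
Gm29216: ggaTttgttttatccaactcatcc
mt-Nd3: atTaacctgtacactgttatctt
Gm28438: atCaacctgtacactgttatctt

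Counted in windows of 100 nt, the length that the gene table's effective lengths imply, mt-Co2 had 3 windows found in no other annotated transcript, of 585. For mt-Atp6 it was 3 of 582, for mt-Co3 1 of 685, for mt-Nd3 6 of 249 and for mt-Nd4l 3 of 198. Those 5 genes thus shared over 90% of their windows with a copy. mt-Co1 kept 1000 of 1446 windows to itself, mt-Nd4 502 of 1279 and mt-Nd2 909 of 939. The protein genes mt-Nd1, mt-Atp8, mt-Nd5, mt-Nd6 and mt-Cytb and both rRNA genes shared no window.

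Transcripts of this genome took a large part of the reads. All 37 genes together held 17.5% of expected counts in replicate 2 and 12.2% in replicate 1 (14.9 ± 3.70%). The rRNAs held 11.1% in replicate 2 and 7.87% in replicate 1, and the 13 protein genes 6.39% in replicate 2 and 4.38% in replicate 1. The exact binomial 95% interval of the 37 genes' share ran from 17.47% to 17.49% in replicate 2 and from 12.23% to 12.26% in replicate 1, so counting error was far smaller than the difference between the libraries. Such intervals cover counting error only. Adding the 4 pseudogenes brought the 13 protein genes to 9.35% in replicate 2 and 6.67% in replicate 1. rRNA made up 63.4% of the mitochondrial counts in replicate 2 and 64.3% in replicate 1, in libraries whose labels name a reduction of ribosomal RNA.

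The 2 rRNA genes stood above all mitochondrial mRNAs. Levels are given in TPM, counts per effective length scaled to a fixed total in each library. mt-Rnr2, the rRNA of the large ribosomal subunit (chrM:1094-2675), had 67652 TPM in replicate 2 and 48681 TPM in replicate 1. mt-Rnr1, the rRNA of the small subunit (chrM:70-1024), had 51065 TPM in replicate 2 and 34431 TPM in replicate 1. The ratio of mt-Rnr1 to mt-Rnr2 was 0.75 in replicate 2 and 0.71 in replicate 1 (0.731 ± 0.0336). By mean TPM, mt-Rnr2 ranked 3 and mt-Rnr1 ranked 4 among all annotated genes. mt-Rnr2 stood 6.57-fold above mt-Nd1, the gene that follows it after a tRNA, in replicate 2 and 6.39-fold above it in replicate 1. The libraries were reduced in ribosomal RNA, and how far that set these rRNA levels and ratios was not tested.

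The 22 tRNA genes could not be measured. They are 59 to 75 nt long, below the 99 nt that the gene table subtracts from each length, so their effective length was 0 and each was listed at 0 counts and 0 TPM in both libraries. The second transcript table, made directly from the reads, gave them effective lengths of 21.7 nt to 26 nt and also 0 counts. These zeros therefore say nothing about the tRNA content of the muscle. The shortest, mt-Ts2 (plus strand, chrM:11613-11671), and the longest, mt-Tl1 (plus strand, chrM:2676-2750), are shown whole to give the size of what fell below the limit.
mt-Ts2: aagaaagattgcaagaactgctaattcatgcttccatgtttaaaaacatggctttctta
mt-Tl1: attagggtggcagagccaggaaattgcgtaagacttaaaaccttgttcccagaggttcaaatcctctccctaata

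In the gene table, without the copies, the highest protein gene stood 133-fold above the lowest in replicate 2 and 140.3-fold in replicate 1. mt-Co1, the catalytic subunit of complex IV (chrM:5328-6872), was highest with 19428 TPM in replicate 2 and 12971 TPM in replicate 1. mt-Cytb, the cytochrome b of complex III (chrM:14145-15288), had 11885 TPM in replicate 2 and 8358 TPM in replicate 1. mt-Atp8, an ATP synthase subunit (chrM:7766-7969), had 9474 TPM in replicate 2 and 5569.8 TPM in replicate 1. For scale, the highest nuclear protein-coding gene by mean TPM was Acta1, skeletal muscle actin, with 18065 TPM in replicate 2 and 20725 TPM in replicate 1. Ckm, muscle creatine kinase, had 16009.6 TPM in replicate 2 and 21854 TPM in replicate 1, and Tnnt3, fast troponin T, had 15168 TPM in replicate 2 and 18401 TPM in replicate 1. mt-Co1 alone thus stood above Acta1 in replicate 2 and below it in replicate 1.

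The complex I genes other than mt-Nd6 lay within a narrow band by the gene table. mt-Nd1 (chrM:2751-3707) had 10290.1 TPM in replicate 2 and 7616 TPM in replicate 1. mt-Nd4 (chrM:10167-11544) had 7774 TPM in replicate 2 and 5301 TPM in replicate 1, and mt-Nd2 (chrM:3914-4951) had 7011 TPM in replicate 2 and 4700.1 TPM in replicate 1. mt-Nd4l (chrM:9877-10173), which overlaps mt-Nd4, had 6329 TPM in replicate 2 and 4652 TPM in replicate 1, so mt-Nd4 stood at 1.23-fold of mt-Nd4l in replicate 2 and 1.14-fold in replicate 1. That ratio leaves out the copies and depends on how reads were divided. The chromosome 1 copy Gm10222 held 13.9% of its pair with mt-Nd4l in replicate 2 and 11.6% in replicate 1. Gm28439 held 0% of its pair with mt-Nd4 in both. The lowest of the plus-strand subunits were mt-Nd5 (chrM:11742-13565), with 4886 TPM in replicate 2 and 3296 TPM in replicate 1, and mt-Nd3 (chrM:9459-9806), with 4829 TPM in replicate 2 and 3954 TPM in replicate 1. Those last genes changed places between the libraries and do not differ beyond their spread.

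mt-Nd6 (minus strand, chrM:13552-14070) was far below the other complex I genes in the gene table. It had 849 TPM in replicate 2 and 490.4 TPM in replicate 1, and it made up 0.94% of the TPM of the 13 genes in replicate 2 and 0.79% in replicate 1. Its overlapping neighbour on the other strand, mt-Nd5, was 5.75-fold higher in replicate 2 and 6.72-fold higher in replicate 1. By the second transcript table mt-Nd6 had 1197 TPM in replicate 2 and 830 TPM in replicate 1. There it stood above mt-Nd4l in both libraries and above mt-Nd3 in replicate 2, both with few counts. mt-Nd6 shares none of its windows with a copy. Whether the counting used strand is not given in the sources used here, and without strand, reads antisense to mt-Nd6 would count as its own.

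The remaining genes were mt-Co2, mt-Co3 and mt-Atp6, each of which stood below its pseudogene in the gene table. mt-Co2, the complex IV subunit that takes electrons from cytochrome c (chrM:7013-7696), had 146 TPM in replicate 2 and 92.4 TPM in replicate 1, while Gm28661 had 21825 TPM in replicate 2 and 15809 TPM in replicate 1. mt-Co3, another core subunit of complex IV (chrM:8607-9390), had 2247 TPM in replicate 2 and 1331 TPM in replicate 1, while Gm28437 had 16489 TPM in replicate 2 and 12945 TPM in replicate 1. mt-Atp6, the proton channel subunit of the ATP synthase (chrM:7927-8607), had 5641 TPM in replicate 2 and 3438 TPM in replicate 1, while Gm10925 had 19246 TPM in replicate 2 and 15405 TPM in replicate 1. In these 3 pairs the copy held most of the reads in both libraries by the gene table. By the second transcript table mt-Atp6 stood above its copy instead. There mt-Atp6 had 27879 TPM in replicate 2 and 20479 TPM in replicate 1, and Gm10925 69.1 TPM in replicate 2 and 1782 TPM in replicate 1. Gm29216, the copy of the end of mt-Co1, had 8449.7 TPM in replicate 2 and 6780.2 TPM in replicate 1. By mean TPM, Gm28661 ranked 7, Gm10925 ranked 8 and mt-Co2 ranked 524 among all annotated genes.

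Genes around the chromosome 1 block stood far below the 4 pseudogenes in TPM. Lmbrd1, on the opposite strand and 62433 nt from the block, had 13.6 TPM in replicate 2 and 12.1 TPM in replicate 1. Col19a1, a collagen gene on the same strand as the copies and 24063 nt away, had 0.48 TPM in replicate 2 and 1.12 TPM in replicate 1, and the pseudogene Tubb4b-ps2, 16112 nt away, had 0.050 TPM in replicate 2 and was listed at 0 in replicate 1. How much of the copies' counts came from chromosome 1 was not tested. Gm29216 had 13 of 393 windows of its own and Gm28438 3 of 246, while the other 5 copies had none, and the tables give counts per gene and not per window.

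How the counts of a pair were divided depended on the quantification. The copy's share of the pair's counts is given first for the second transcript table and then for the gene table. For Gm10925 and mt-Atp6 it was 0.25% in replicate 2 and 7.94% in replicate 1 by the second transcript table, against 77.2% in replicate 2 and 81.7% in replicate 1 by the gene table. For Gm28437 and mt-Co3 it was 75.2% in replicate 2 and 76.4% in replicate 1, against 88.0% in replicate 2 and 90.7% in replicate 1. Gm28661 kept most of the counts it shared with mt-Co2 in every version, with 93.9% in replicate 2 and 95.6% in replicate 1 by the second transcript table, against 99.3% in replicate 2 and 99.4% in replicate 1 by the gene table. For Gm29216 and mt-Co1 the share was 2.08% in replicate 2 and 2.73% in replicate 1, against 10.6% in replicate 2 and 12.4% in replicate 1. Copies without a mismatch were not all given the same share. Gm28439, which matches the first 876 bases of mt-Nd4, held 0% of that pair in both libraries by the gene table. Gm28438, with its single substitution, also held 0% of its pair with mt-Nd3. Gm10222, without a mismatch, held 13.9% of its pair with mt-Nd4l in replicate 2 and 11.6% in replicate 1.

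**Figure D1:**
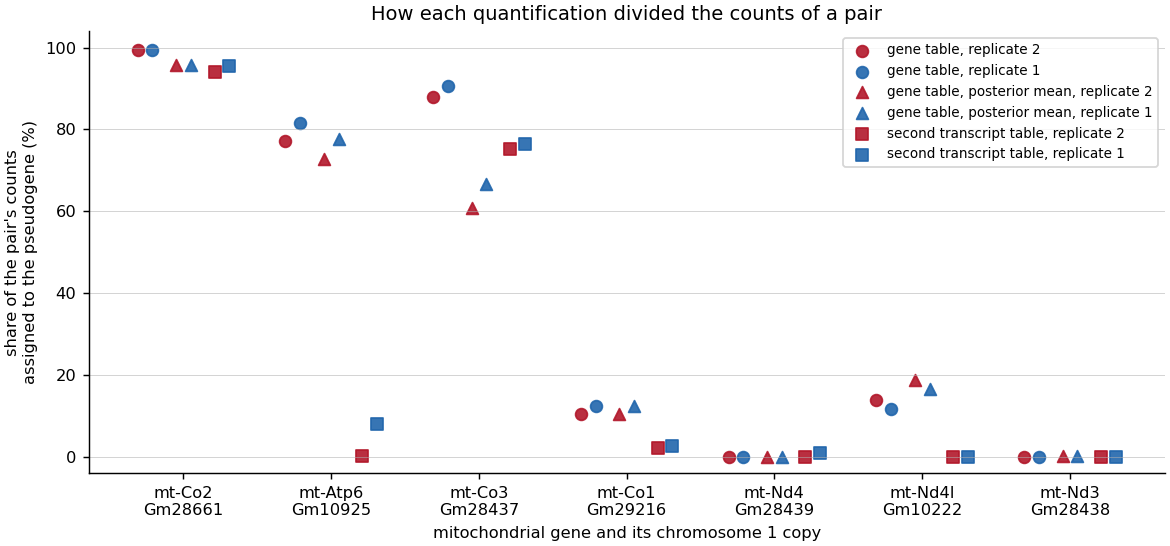
Share of each pair's counts, in percent, that was assigned to the chromosome 1 copy, for 7 gene and copy pairs; red marks are replicate 2, blue marks replicate 1, circles the gene table, triangles its posterior mean and squares the second transcript table. The mt-Co2 pair is at 93.9% or more in every version, while the mt-Atp6 pair lies at 77.2% and 81.7% in the gene table and at 0.25% and 7.94% in the second transcript table, each for replicate 2 and then replicate 1.

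The gene table also carries a posterior SD of each count, a measure of how sure the quantification was of the division of reads. It was at most 1.4e-05% of the posterior mean for the 5 protein genes that share no window, and 0.00027% to 0.069% for mt-Nd2, mt-Co1 and mt-Nd4. For the 5 genes that share over 90% of their windows it ran from 0.14% to 28.0%. The highest values were those of mt-Co2, at 22.5% in replicate 2 and 28.0% in replicate 1, followed by mt-Co3 at 4.68% in replicate 2 and 7.06% in replicate 1 and mt-Atp6 at 5.20% in replicate 2 and 6.54% in replicate 1. The posterior mean of mt-Co2 itself was 18714 counts in replicate 2 and 12154 in replicate 1, against an expected count of 2946 in replicate 2 and 1707 in replicate 1. In each of these 3 genes, the expected count lay outside 1 posterior SD of the posterior mean in both libraries.

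Within 1 quantification, the sum of a pair does not depend on how reads were divided within it. Each of the 4 pairs of the gene table was therefore also summed over the effective length of the mitochondrial gene. The sums take all counts of the 4 copies as mitochondrial, which was not tested. With their copies, the 4 genes became the 4 highest mitochondrial protein genes in both libraries. The mt-Atp6 pair had 24787 TPM in replicate 2 and 18763 TPM in replicate 1, and the mt-Co2 pair had 21858 TPM in replicate 2 and 15821 TPM in replicate 1. The mt-Co1 pair had 21724 TPM in replicate 2 and 14813 TPM in replicate 1, and the mt-Co3 pair had 18712 TPM in replicate 2 and 14256 TPM in replicate 1. Neighbours in that order overlap in their ranges over the libraries, while the mt-Atp6 pair, the highest of the 4, does not overlap with the mt-Co3 pair, the lowest. By mean TPM, mt-Co2 stood 158-fold higher with its copy than without it and held place 2 among the 13 genes, against place 13 without it. mt-Atp6 held place 1 with its copy, against place 8 without it. mt-Co3 stood 9.22-fold higher with its copy, and mt-Co1 1.13-fold. The order among the 4 depended on the table. By the second transcript table the mt-Co2 pair was highest, with 31241 TPM in replicate 2 and 24714 TPM in replicate 1. There the mt-Co1 pair had 28852 TPM in replicate 2 and 20779 TPM in replicate 1. The mt-Atp6 pair had 27948 TPM in replicate 2 and 22245 TPM in replicate 1. The 4 genes lie beside each other in the genome, with mt-Atp8 and tRNA genes among them. By the gene table, as pairs they held 57.9% of the pair-summed TPM in replicate 2 and 59.2% in replicate 1.

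**Figure D2:**
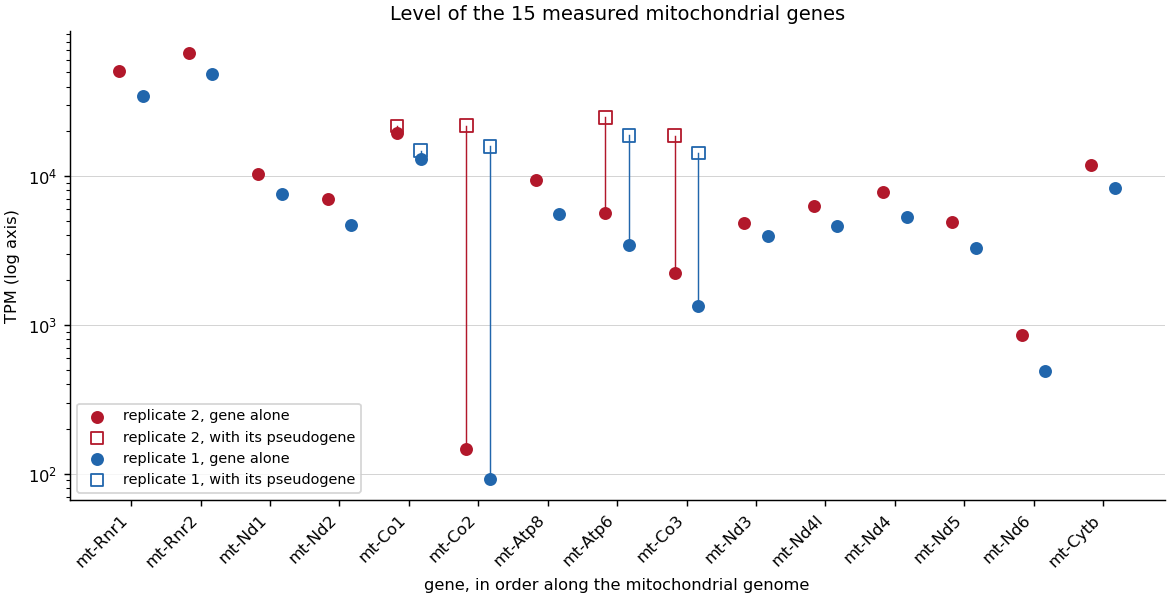
TPM on a log axis of the 15 measured mitochondrial genes in their order along the genome; red is replicate 2 and blue replicate 1, filled circles are the gene alone and open squares the gene summed with its chromosome 1 pseudogene. mt-Co2 lies at 21858 TPM in replicate 2 and 15821 TPM in replicate 1 with Gm28661, against 146 TPM in replicate 2 and 92.4 TPM in replicate 1 alone, while mt-Nd6 is lowest of the genes without a copy.

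With the 4 pairs summed by the gene table, and all their counts taken as mitochondrial, the TPM of the 13 genes had nearly the same make-up by complex in both libraries. Its total differed. The other 3 of the 7 copies were left out. Summed TPM was 150409 in replicate 2 and 107591 in replicate 1, a 1.40-fold difference. Complex I genes made up 27.9% of it in both libraries, and the single complex III gene made up 7.90% in replicate 2 and 7.77% in replicate 1. Complex IV genes made up 41.4% in replicate 2 and 41.7% in replicate 1, and complex V genes 22.8% in replicate 2 and 22.6% in replicate 1. Of the 13 genes, 12 differed in share by under 1 percentage point, and 11 held the same place in the order of levels. mt-Nd6, with 0.56% in replicate 2 and 0.46% in replicate 1, was bound to pass that limit. In percentage points mt-Atp8 differed most, with 6.30% in replicate 2 and 5.18% in replicate 1. Pair-summed TPM of single genes, replicate 2 over replicate 1, ran from 1.22-fold for mt-Nd3 to 1.73-fold for mt-Nd6. Without the copies, complex IV genes made up 24.0% in replicate 2 and 23.3% in replicate 1, and complex I genes 46.2% in replicate 2 and 48.6% in replicate 1. By the second transcript table, the mt-Co2 pair made up 18.5% in replicate 2 and 18.8% in replicate 1. By the gene table it made up 14.5% in replicate 2 and 14.7% in replicate 1. With mt-Atp8 at 0 in the second transcript table, the mt-Atp6 pair was all of complex V there, at 16.5% in replicate 2 and 16.9% in replicate 1.

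**Figure D3:**
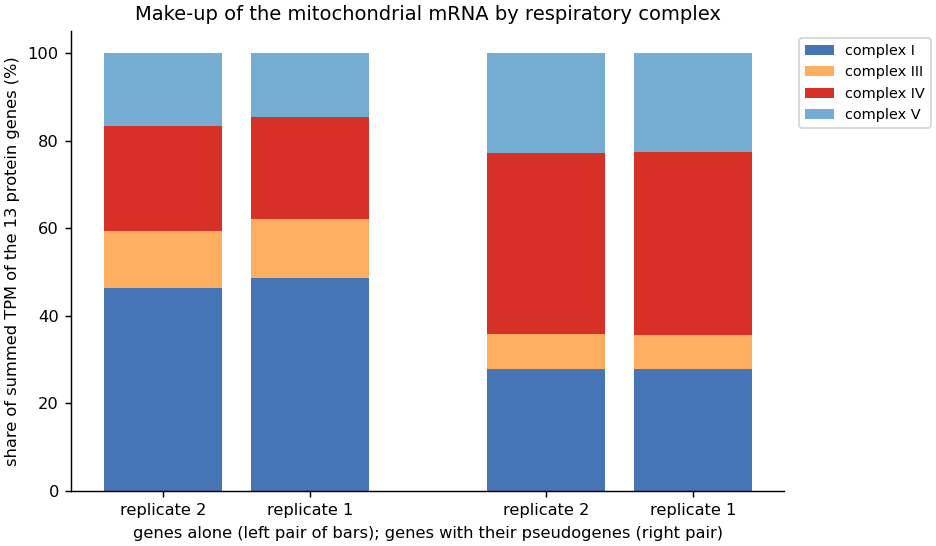
Stacked bars of the share, in percent, of summed TPM of the 13 mitochondrial protein genes by respiratory complex, for the genes alone (left pair of bars) and with their 4 pseudogenes (right pair), with replicate 2 left of replicate 1 in each pair. By the gene table and with the pseudogenes, complex IV takes 41.4% in replicate 2 and 41.7% in replicate 1, above complex I at 27.9% in both libraries.

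The second transcript table kept the longer genes and nearly lost the short ones. Over the 6 longer genes outside the 4 pairs (mt-Nd1, mt-Nd2, mt-Nd4, mt-Nd5, mt-Nd6 and mt-Cytb), the ratio of TPM in the second transcript table to TPM in the gene table was 1.23 to 1.45 in replicate 2 and 1.29 to 1.69 in replicate 1. mt-Atp8, with 204 nt, had 0 counts in the second transcript table in both libraries, against 34400 in replicate 2 and 18463 in replicate 1 in the gene table. mt-Nd3, with 348 nt, had 41 counts in replicate 2 and 3349 in replicate 1, against 41577 in replicate 2 and 31079 in replicate 1. mt-Nd4l, with 297 nt, had 27 counts in replicate 2 and 80 in replicate 1, against 43337 in replicate 2 and 29079 in replicate 1. These 3 are the only mitochondrial protein genes under 500 nt. Its summed counts of a pair were 0.59 of those of the gene table for mt-Atp6 in both libraries, 0.75 in replicate 2 and 0.78 in replicate 1 for mt-Co2, 0.76 in replicate 2 and 0.77 in replicate 1 for mt-Co3, and 1.00 in both libraries for mt-Co1. It also put mt-Rnr1 lower relative to mt-Rnr2, at a mean ratio of 0.662.

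Mitochondrial mRNAs far exceeded those of their nuclear partners per gene. The lists of nuclear genes here and below were set by function. Averaged per gene, with pairs summed, mitochondrial complex I genes had 5995 TPM in replicate 2 and 4287 TPM in replicate 1, against 268 TPM in replicate 2 and 229.8 TPM in replicate 1 for 18 listed nuclear complex I genes. The ratio was 22.4 in replicate 2 and 18.7 in replicate 1. For complex III, with 9 listed nuclear genes, the ratio was 34.02 in replicate 2 and 29.9 in replicate 1. For complex IV, with 13, it was 42.8 in replicate 2 and 41.9 in replicate 1, and for complex V, with 15, it was 36.3 in replicate 2 and 32.8 in replicate 1. Without the copies the ratio was 14.99 in replicate 2 and 13.4 in replicate 1 for complex IV, and 16.02 in replicate 2 and 12.1 in replicate 1 for complex V. With pairs summed, the lowest mitochondrial gene of complexes III, IV and V stood above the highest nuclear gene in both libraries. That order depends on the copies and on the table: mt-Co2 alone, with 146 TPM in replicate 2 and 92.4 TPM in replicate 1, lay below Cox8b, and mt-Atp8 was at 0 in the second transcript table. On the complex I list, mt-Nd6 stood above every nuclear gene in replicate 2 and below Ndufa4 alone in replicate 1.

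Among the listed nuclear genes, the order of levels was led by different genes in each complex. The 2 of highest mean TPM in complex I were Ndufa4, long listed with complex I and now placed with complex IV, with 633 TPM in replicate 2 and 575 TPM in replicate 1, and Ndufc1, with 399 TPM in replicate 2 and 419 TPM in replicate 1. In complex III they were Uqcrq, with 547 TPM in replicate 2 and 396 TPM in replicate 1, and Uqcr10, with 431 TPM in replicate 2 and 357 TPM in replicate 1. In complex IV they were Cox8b, with 941 TPM in replicate 2 and 860.5 TPM in replicate 1, and Cox6a2, with 856 TPM in replicate 2 and 518 TPM in replicate 1, both isoforms of heart and skeletal muscle. In complex V they were the beta and alpha subunits of its F1 head, Atp5b, with 1455 TPM in replicate 2 and 1191 TPM in replicate 1, and Atp5a1, with 851 TPM in replicate 2 and 646 TPM in replicate 1.

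**Figure D4:**
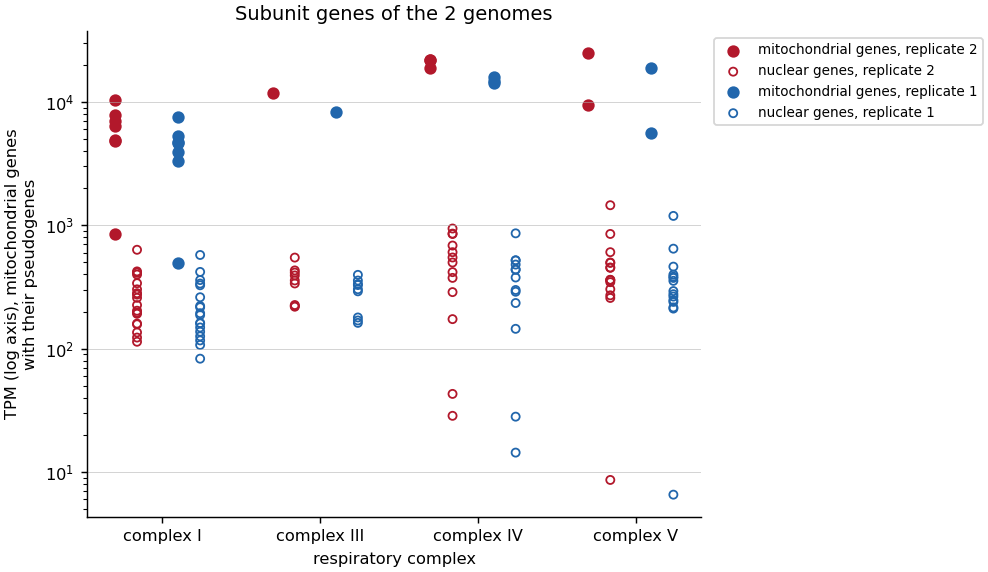
TPM on a log axis of mitochondrial genes with their pseudogenes (filled) and of nuclear genes (open) of each respiratory complex, with replicate 2 in red left of replicate 1 in blue. In complexes III, IV and V every mitochondrial gene lies above every listed nuclear gene; on the complex I list mt-Nd6 lies below 1 nuclear gene, Ndufa4, in replicate 1.

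The libraries differed in the amount of mitochondrial RNA by less than 2-fold. A 2-sided exact binomial test set each gene's rounded expected count in replicate 2 against the sum of both libraries, with shares expected from TMM library sizes and Benjamini-Hochberg adjustment over the 14959 genes whose mean count was 10 or more, and a gene was called at an adjusted p below 0.05 and at least 2-fold. The test compares these libraries and not conditions, and its p-values cover counting error only, here and for every list below, with reads taken as independent. By the gene table, all 15 measured mitochondrial genes were higher in replicate 2 and had an adjusted p below 0.05, where 35.4% of all genes tested had such a p and 18.9% had it with the higher value in replicate 2. None of the 15 was called, against 6.18% of all genes tested, of which those called higher in replicate 2 were 4.47%. The largest adjusted p of the 15 was 2.09e-43, for mt-Co2 (exact binomial test), so at this depth even small differences passed the test.

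The size of the difference varied between genes. On the scale of TMM-scaled counts plus 0.5, replicate 2 over replicate 1, the 13 protein genes had a median log2 ratio of 0.53, against 0.0090 over all genes tested. By the gene table and without the copies, mt-Nd6 differed most, by 1.67-fold (log2 0.74), followed by mt-Atp8 by 1.65-fold (log2 0.72) and mt-Co3 by 1.63-fold (log2 0.71). mt-Nd3 differed least, by 1.18-fold (log2 0.24). In the second transcript table, with few counts for both, mt-Nd3 stood at log2 -6.51 and mt-Nd4l at log2 -1.73, both called lower in replicate 2, and mt-Co2 had the highest ratio (log2 0.80). mt-Rnr1 differed by 1.43-fold and mt-Rnr2 by 1.34-fold. The 4 pseudogenes differed by 1.21-fold to 1.34-fold, less than the genes they copy. With pairs summed the median log2 ratio of the 13 genes was 0.46 on the same scale. The pairs themselves stood at log2 0.34 for mt-Co3, 0.35 for mt-Atp6, 0.42 for mt-Co2 and 0.50 for mt-Co1. The place of mt-Co3 among the largest ratios thus depended on how reads were divided. Scaling by the spike-ins added 0.22 log2 in favour of replicate 2 to every gene, which put the median of all genes at 0.23 and that of the 15 mitochondrial genes at 0.74, and no mitochondrial gene reached 2-fold.

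Nuclear subunit genes of the same complexes were also higher in replicate 2, by less. None of the 9 nuclear lists held a called gene, among 142 genes tested, against 6.18% of all genes tested. Under spike-in scaling 1 was called, Cox6a1, at log2 1.16. The median log2 ratio was 0.22 for complex I, with 15 of 18 genes higher and 1 lower at an adjusted p below 0.05. It was 0.28 for complex III, with 9 of 9 higher, 0.34 for complex IV, with 13 of 13 higher, and 0.31 for complex V, with 14 of 15 higher, where 18.9% of all genes tested were higher at that threshold. Cox6a1, the non-muscle isoform of a complex IV subunit, had the largest ratio among them, 1.92-fold, at 28.5 TPM in replicate 2 and 14.4 TPM in replicate 1.

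Genes that make, process and maintain mitochondrial RNA and DNA had median ratios close to that of all genes. For mitochondrial transcription none of 10 genes had an adjusted p below 0.05 (median log2 0.07), against 35.4% of all genes tested. Passing this test depends on counts as well as on the ratio. On this list counts reached at most 1368, for Tfb2m in replicate 2. Numbers of genes passing therefore do not compare between lists of different depth. Tfam, which packages mitochondrial DNA and starts transcription, had 22.1 TPM in replicate 2 and 21 TPM in replicate 1, and Tfb2m, a transcription initiation factor, had 22.5 TPM in replicate 2 and 18.0 TPM in replicate 1. For RNA processing and decay, 4 of 21 genes were higher and 1 lower at that threshold (median log2 0.06), with the count of higher genes near the 18.9% of all genes tested. The most abundant were Fastk, whose mitochondrial form binds mt-Nd6 mRNA, with 81.6 TPM in replicate 2 and 74.8 TPM in replicate 1, and Slirp, the partner of Lrpprc in stabilising mitochondrial mRNAs, with 68.1 TPM in replicate 2 and 69.1 TPM in replicate 1.

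The other lists of this machinery also had medians near 0. For tRNA and rRNA modification, 2 of 18 genes were higher and 1 lower at that threshold (median log2 0.02), and the most abundant were Nsun2, a tRNA methyltransferase, with 19.6 TPM in replicate 2 and 19.5 TPM in replicate 1, and Osgepl1, which modifies an adenosine of mitochondrial tRNAs, with 9.62 TPM in replicate 2 and 10.5 TPM in replicate 1. For aminoacyl-tRNA synthetases and related genes, 2 of 22 were higher and 4 lower (median log2 -0.01), led by Kars, with 56.9 TPM in replicate 2 and 53.2 TPM in replicate 1, and Gars, with 25.0 TPM in each library, which both also serve the cytosol. For mitochondrial DNA maintenance, 2 of 16 were higher and 1 lower (median log2 -0.06). The 2 higher genes were also the most abundant. They were Slc25a4, the muscle ATP/ADP carrier, with 1253 TPM in replicate 2 and 1101 TPM in replicate 1, and Mfn2, a fusion protein of the outer membrane, with 187 TPM in replicate 2 and 167 TPM in replicate 1. The 1 lower gene was Prkaa2, a subunit of the kinase AMPK (log2 -0.31). Of the synthetases and related genes, 6 of 22 had such a p in either direction. Of all genes tested, 35.4% had it in either direction and 18.9% with the higher value in replicate 2. Such numbers also depend on depth.

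**Figure D5:**
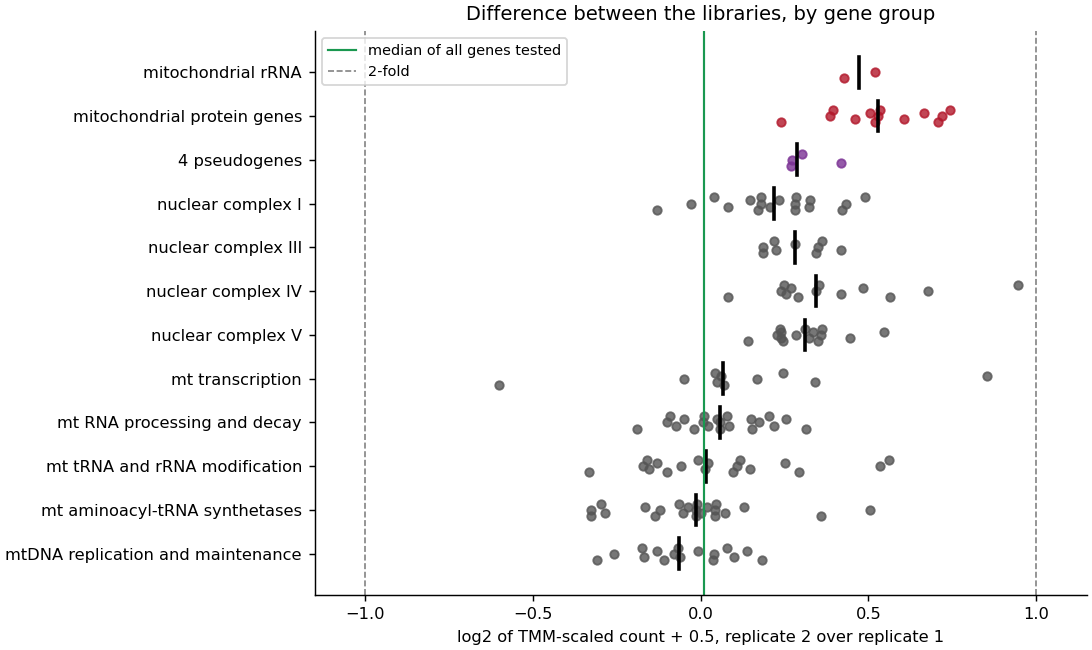
Log2 ratio of TMM-scaled counts plus 0.5, replicate 2 over replicate 1, for each gene of a group (points) with the group's median (black bar); the green line is the median of all genes tested and dashed lines mark 2-fold. Mitochondrial genes have a median of 0.47 for the rRNAs and 0.53 for the protein genes, nuclear respiratory genes of 0.22 to 0.34, and the lists of mitochondrial RNA and DNA machinery lie around 0.

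Markers of slow, oxidative fibres moved in the same direction as the mitochondrial genes. All 8 of 8 slow fibre markers were called higher in replicate 2, against 4.47% of all genes tested, with a summed level of 2366 TPM in replicate 2 and 222 TPM in replicate 1. All 7 of 7 fast fibre markers were lower in replicate 2 at an adjusted p below 0.05, but none was called. Of all genes tested, 35.4% had such a p in either direction and 6.18% were called. Counts of these markers were 166815 or more, where even small differences passed. The list summed to 68751 TPM in replicate 2 and 89341 TPM in replicate 1. Under spike-in scaling Tnnc2, a fast troponin C, stood at log2 0.02 in place of -0.20. Of 4 cardiac markers 2 had enough counts to be tested and both were called higher in replicate 2. The list summed to 73.5 TPM in replicate 2 and 6.01 TPM in replicate 1, nearly all of it Myh6, while Nppa was listed at 0 in both. Of 4 brown adipocyte markers 2 were tested and none was called, though Ppargc1a was 1.59-fold higher in replicate 2 at an adjusted p below 0.05. The list summed to 23.0 TPM in replicate 2 and 15.8 TPM in replicate 1, nearly all of it Ppargc1a, while Ucp1 was listed at 0 in both. Of 4 endothelial markers 2 were called higher in replicate 2, with a summed level of 44.3 TPM in replicate 2 and 28.0 TPM in replicate 1. Of 4 white adipocyte markers 2 were called higher and 1 lower, with 27.6 TPM in replicate 2 and 16.3 TPM in replicate 1. None of 5 erythrocyte or 4 macrophage markers was called. At an adjusted p below 0.05, 3 of 5 erythrocyte and 1 of 4 macrophage markers were higher in replicate 2, against 18.9% of all genes tested. Erythrocyte sums were 483 TPM in replicate 2 and 371 TPM in replicate 1, and macrophage sums 14.2 TPM in replicate 2 and 12.3 TPM in replicate 1. The part of fibre type in the mitochondrial difference was not tested, and in bulk tissue a different mix of cells cannot be told apart from different RNA per cell.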

How the data were processed

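Both gastrocnemius libraries were analysed from the deposited files, which use mm10 with GENCODE M21, per the labels and each sample's list of files. Neither the aligner nor the quantification program is named in the sources used here. The authors made the expected counts, TPM and posterior SD (a score in reads) of the gene table from an alignment to the transcriptome, and the estimated counts and TPM of the second transcript table from the reads themselves, per the file headers and that list. Expected counts were rounded for tests. Library sizes came from edgeR 4.0.16 (TMM), with DESeq2 1.42.0 size factors as an alternative, in R 4.3.3, and tests from SciPy 1.17.1. TPM ratios used a pseudocount of 0.5. A quasi-likelihood test needs groups and was not run. Windows, copies and all sequences came from GENCODE M21 transcripts. The exact binomial test was tested on simulated data. Of the list symbols, 2 are not in the annotation. Every member and pseudogene is named or counted. Of nuclear lists, called genes and the 2 of highest mean TPM are named, with the 3 highest nuclear genes as a scale. Cox6a1, Prkaa2, the chromosome 1 neighbours and single marker genes were chosen after their values were seen. The members and lists were chosen with earlier results of these data known.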

Additional observations from a re-analysis of the deposited data

How the results depend on the processing

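No paired analysis was possible because the series has 1 group. The share of TPM held by the 13 protein genes (8.60 ± 2.54%) was 15.2% with the 4 pseudogenes, 12.5% in the second transcript table, 18.2% there with the pseudogenes, and 14.5% over protein-coding genes alone. The pseudogenes' share of the TPM they and the 13 genes held together (43.6 ± 2.19%) was 31.8% in the second transcript table and 39.4% by posterior means. The ratio of mt-Rnr1 to mt-Rnr2 was 0.662 in the second transcript table, and mt-Nd6 made up 0.51% of protein gene TPM with the pseudogenes added. The median log2 ratio of the 13 genes on TPM (0.58) was 0.75 on spike-in-scaled counts, and the nuclear lists then held 1 called gene. The second transcript table called 2 mitochondrial genes, both lower in replicate 2: mt-Nd3 (log2 -6.51) and mt-Nd4l (log2 -1.73). The causes were not tested. Without replicate 1 or replicate 2 the share of counts ranged from 12.2% to 17.5%, the share of TPM from 6.80% to 10.4%, the rRNA ratio from 0.71 to 0.75, the mt-Nd6 share from 0.79% to 0.94%, the pseudogene share from 42.1% to 45.2% and the ratio of the quantifications from 1.35 to 1.46. Counting all 7 copies, the second transcript table with pseudogenes, pair sums in single levels, median log2 ratios and the ratio of the quantifications, and posterior mean TPM of single genes were chosen after seeing the data. No mitochondrial gene was called under DESeq2 size factors, spike-in scaling, total counts, no filter, a mean count of at least 100 or with the pseudogenes added. Reads shared with copies limit mt-Co2, mt-Atp6, mt-Co3 and mt-Nd4l.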

Other observations

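The 3 annotated transcripts outside chromosome 1 that share a window of 100 nt with a mitochondrial gene lie on chromosome 2 and took few reads. Gm13340, which shares windows with mt-Co1, had 139 expected counts in replicate 2 and 98.9 in replicate 1. Gm13341, which shares windows with mt-Co2, had 184 in replicate 2 and 125 in replicate 1, and Gm13339, which shares windows with mt-Nd2, had 2.65 in replicate 2 and 0 in replicate 1. On chromosome 1, Gm28661, the copy of mt-Co2, had 439241 counts in replicate 2 and 290481 in replicate 1, and Gm29216, the copy of mt-Co1, had 114832 in replicate 2 and 84123 in replicate 1.

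Of the 13 protein genes, 10 end in a whole stop codon in the annotation, and mt-Co3, mt-Nd4 and mt-Cytb have 1 base beyond a multiple of 3. In such genes the stop codon is completed by the poly(A) tail, as is known of mammalian mitochondrial mRNAs.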
